A study of Mus musculus with 9 samples.

Results

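The SWI/SNF ATPases and the subunits that set its BAF and PBAF forms apart were examined by name: Smarca4, Smarca2, Arid1a, Arid1b, Arid2, Pbrm1, Brd7, Brd9, Phf10 and Dpf2. They were taken by their role in the complex. All 10 genes were measured, on 12 of 34760 probe sets and among 19937 genes with a probe set of their own. RNA came from RN2, a mouse acute myeloid leukaemia line carrying the MLL-AF9 fusion and NrasG12D, and was read on 9 arrays of biotin-labelled cDNA. The series asked which transcripts lie downstream of Brg1, the protein made from Smarca4, in this leukaemia.

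The groups were Brg1sh_3232, Brg1sh_3364 and Brg1sh_4935, which carried 3 different hairpins against Brg1 in the TRMPV vector and had 2 arrays each, and TRMPV_Rluc, whose hairpin targets Renilla luciferase and which had 3 arrays. All 4 groups received 1 ug/ml doxycycline for 96 h, which switches on the hairpin, so no group shows the cells without drug. The Rluc arrays alone carry the term TtTMPV in their cell line name, and this cannot be told apart from the hairpin. All arrays come from 1 cell line, and no label says that replicates were separate cultures, so each p-value reflects the spread of these arrays alone, which may be technical.

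SWI/SNF is a chromatin remodeller: an ATPase, Brg1 or Brm, uses ATP to slide or evict nucleosomes, and the subunits around it decide where the complex works. BAF holds ARID1A or ARID1B with DPF2, PBAF holds ARID2 with PBRM1, BRD7 and PHF10, and a smaller form without any ARID subunit is marked by BRD9. A single BAF or PBAF complex carries 1 ATPase and 1 ARID subunit at a time, so paralogues take each other's place.

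Knockdown of Brg1 was accompanied by less Smarca4 RNA, more Arid1a, Arid1b and Arid2 RNA and less Brd7 RNA. Of the 10 genes, 3 rose and 2 fell at a Benjamini-Hochberg adjusted p below 0.05 in the mean of the 3 hairpins against Rluc, the fall of Smarca4 being the knockdown itself. Over all 19937 genes 28.3% were called, with 13.3% higher and 15.0% lower. Calls were therefore common on these arrays. They were more common among brighter genes, and all 10 genes lay above the median level. With genes below that level left out, 55.6% of the remaining 9969 genes were called. In that setting the 10 genes kept 3 higher and 2 lower calls. The 4 calls beyond the target are read against both shares. Those of Arid2 and Brd7 were lost with the 3 hairpin means as replicates (limma adjusted p = 0.135 and 0.124). By hairpin, Brd7 was called with Brg1sh_3232 alone, and Arid2 was not called with Brg1sh_4935. The median log2 change of the 10 genes was -0.00, as it was over all genes. Values below are log2 RMA levels as deposited, and the changes are log2 differences from limma, with standard errors (SE) of the fit; a level is not compared between genes.

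The array medians lay between 7.39 and 7.49. Among all called genes 47.1% were higher, against 36.5% when each array was centred on its median. Of 10 macrophage markers 9 rose in the mean of the hairpins, with a median log2 change of 0.75, and the mean level of the list was 10.40 to 10.85 in knockdown arrays, against 9.62 to 9.73 in Rluc arrays. Of 7 markers of leukocyte and myeloid identity 2 rose (Ptprc and Spi1) and 3 fell (Cebpa, Mpo and Elane), with a mean level of 12.28 to 12.52 in knockdown arrays and 12.49 to 12.62 in Rluc arrays. In the mean of the hairpins, limma called 0 of 5 measured lymphoid markers and 0 of 4 measured erythroid and megakaryocyte markers, and 0 in either list had an unadjusted p under 0.05. With Brg1sh_3364 alone, 1 of the 4 erythroid and megakaryocyte markers was called higher, and 1 lymphoid marker had an unadjusted p under 0.05. The lymphoid list averaged 6.02 to 6.12 in knockdown arrays and 6.05 to 6.08 in Rluc arrays, and the erythroid and megakaryocyte list 7.12 to 7.33 in knockdown arrays and 7.07 to 7.22 in Rluc arrays. No detection calls were used, so none of these markers is called absent. The macrophage markers rose in the same comparison as the results below, and their part in those results was not tested. In these bulk samples, fewer cells of a type and less RNA per cell cannot be told apart.

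Smarca4 (probe set 10583697), the gene of the Brg1 ATPase and the target of the hairpins, was lower in every knockdown array. Its levels were 10.67 and 10.90 with Brg1sh_3232, 10.78 and 10.81 with Brg1sh_3364 and 10.70 and 10.76 with Brg1sh_4935, against 11.79, 11.77 and 11.79 with Rluc. The 6 knockdown arrays lay together and far below the 3 Rluc arrays, with no overlap. Smarca4 fell by 1.00 (SE 0.06) with Brg1sh_3232, by 0.99 (SE 0.06) with Brg1sh_3364 and by 1.05 (SE 0.06) with Brg1sh_4935 (limma adjusted p = 2.66e-05, 1.31e-05 and 1.09e-05). The pairwise differences between hairpins were at most 0.06 in size, and their 95% intervals reached from -0.22 to 0.17, so no difference in knockdown between the hairpins was detectable. Of all genes, 99.1% had a smaller absolute change.

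The sequence before the start of Smarca4 is shown with those of Arid1a and Brd7, since these are the called genes for which part of the 250 bases before the start lies outside annotated genes. The sequences are from RefSeq on GRCm38.p6, 5′ to 3′ on the gene's strand, and capitals mark the GC box GGGCGG or its reverse complement CCGCCC, the letters that factors of the Sp family bind.
Smarca4, chr9:21615919-21616105, plus strand: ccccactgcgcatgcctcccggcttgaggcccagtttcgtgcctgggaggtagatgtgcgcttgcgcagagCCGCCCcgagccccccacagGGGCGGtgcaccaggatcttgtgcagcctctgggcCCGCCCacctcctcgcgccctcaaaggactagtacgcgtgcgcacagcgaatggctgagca
Arid1a, chr4:133756770-133757019, minus strand: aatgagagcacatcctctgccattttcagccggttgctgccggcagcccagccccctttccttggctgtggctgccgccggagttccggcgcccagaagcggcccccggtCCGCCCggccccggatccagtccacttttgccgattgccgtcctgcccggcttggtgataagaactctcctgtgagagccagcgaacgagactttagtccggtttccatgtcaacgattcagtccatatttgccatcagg
Brd7, chr8:88362253-88362422, minus strand: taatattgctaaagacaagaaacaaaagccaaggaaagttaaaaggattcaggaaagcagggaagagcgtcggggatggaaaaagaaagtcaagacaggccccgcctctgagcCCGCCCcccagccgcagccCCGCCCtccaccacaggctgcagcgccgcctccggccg
These stretches hold 3 GC boxes for Smarca4, 1 for Arid1a and 2 for Brd7. Of the 10 genes, 9 matched a RefSeq promoter entry, and 7 of the 9 windows of 250 bases before the start held a GC box on either strand. The windows of Smarca4, Smarca2, Arid1b, Brd7 and Brd9 overlapped the annotated span of the gene itself. Those of Smarca2 and Arid1b lay wholly inside annotated genes, so these counts partly describe sequence within genes. Over all 32851 windows, which include noncoding genes, 32.74% held one. The 9 windows held 17 to 51 CpG dinucleotides, with a median of 28, where the median of all windows was 6, and their GC content ran between 57.2% and 88.4%, where the median of all was 52.4%. The motif CCAAT, searched on both strands, was found in the Dpf2 window alone, against 33.85% of all windows, and CACGTG in the Pbrm1 window alone, against 6.021%. All 9 matched genes, called or not, lay above the median GC content, and a match of letters is a description of the window.

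Smarca2 (probe set 10462237) encodes Brm, the alternative ATPase that takes the place of Brg1 in the complex. Its levels were 10.98 and 10.92 with Brg1sh_3232, 10.86 and 10.91 with Brg1sh_3364 and 10.74 and 10.76 with Brg1sh_4935, against 10.83, 10.80 and 10.63 with Rluc. The Brg1sh_3232 and Brg1sh_3364 arrays lay above all Rluc arrays, and the Brg1sh_4935 arrays lay among them. The log2 change was 0.20 (95% interval 0.05 to 0.34, limma adjusted p = 0.0576) with Brg1sh_3232 and 0.14 (interval -0.01 to 0.28, adjusted p = 0.17) with Brg1sh_3364. With Brg1sh_4935 it was -0.00 (interval -0.14 to 0.14, adjusted p = 0.996). None of these passed the test, and neither did the mean of the hairpins at 0.11 (interval -0.00 to 0.22). Without Rluc replicate 3 the mean was 0.05. The Brg1sh_3232 change was called in 3 of 18 alternatives: after a further quantile normalization (adjusted p = 0.0444), with genes below the median level left out (0.0316) and without Rluc replicate 1 (0.036). The difference among hairpins was not called either (F test adjusted p = 0.193).

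**Figure D1:**
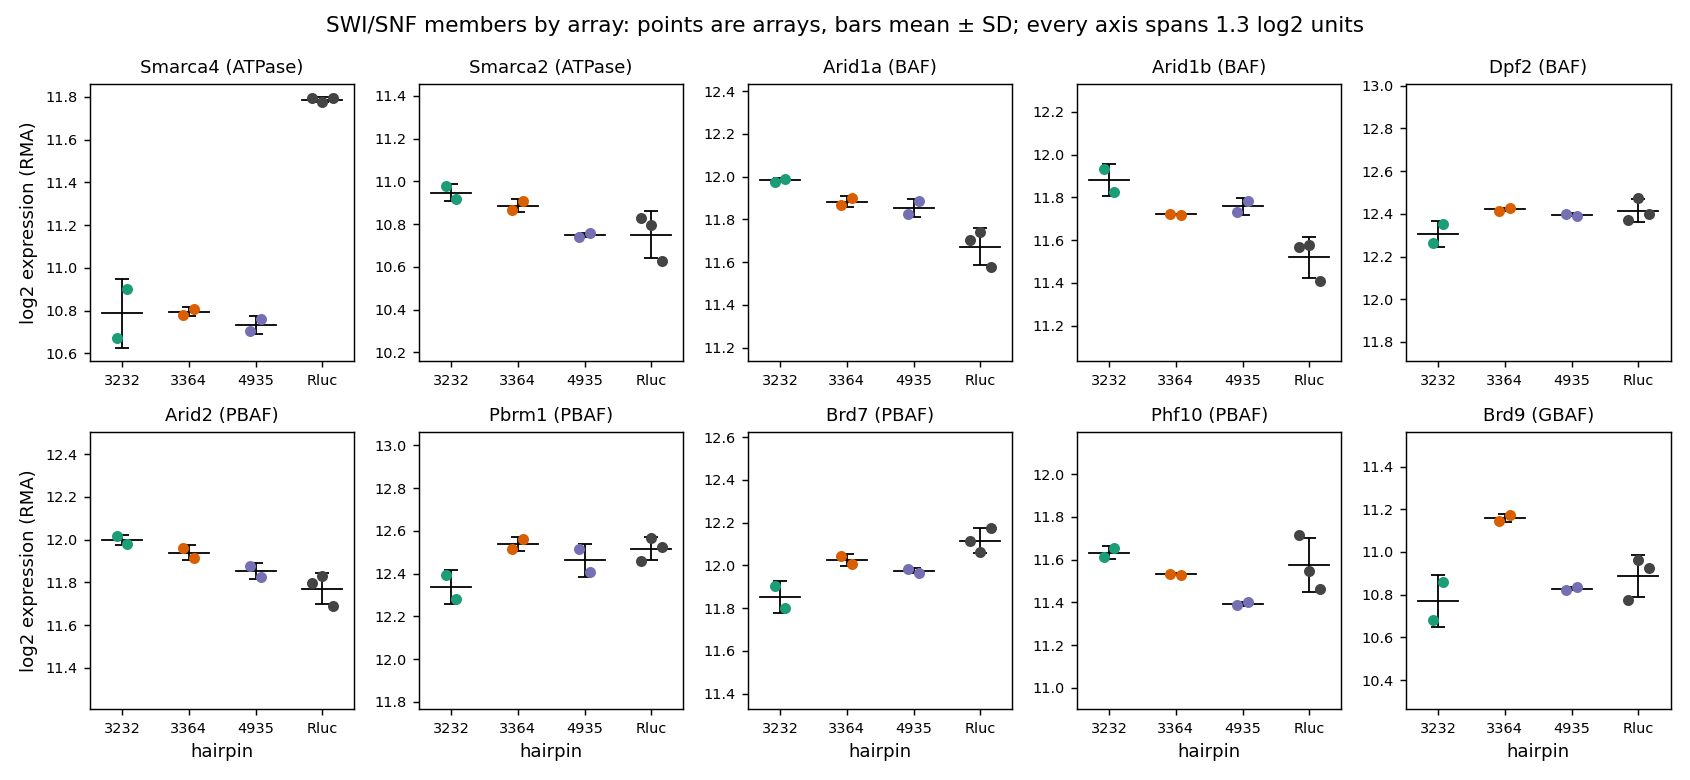
Log2 RMA level of each of the 10 genes, 1 panel per gene, with a point for every array; groups run left to right as Brg1sh_3232, Brg1sh_3364, Brg1sh_4935 and Rluc, and short lines mark group means. Smarca4 and Brd7 lie below all 3 Rluc arrays in 6 of 6 knockdown arrays, Arid1a and Arid1b above them in 6 of 6, and Brd9 is high in the Brg1sh_3364 arrays alone.

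The log2 difference Smarca2 minus Smarca4 within an array was between -0.01 and 0.30 in the 6 knockdown arrays, against -1.17 to -0.96 in the 3 Rluc arrays. The shift of 1.13 between knockdown and Rluc arrays is given as a description, since Smarca4 is the hairpins' target and its fall makes up nearly all of it. Probe sets differ in how strongly they respond, so the difference within one array does not say which ATPase is more abundant.

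The BAF subunits Arid1a and Arid1b, large DNA-binding proteins that take each other's place in BAF, both rose. Arid1a (probe set 10517090) stood at 11.98 and 11.99 with Brg1sh_3232, 11.87 and 11.90 with Brg1sh_3364 and 11.82 and 11.88 with Brg1sh_4935, against 11.70, 11.74 and 11.58 with Rluc. Arid1b (probe set 10441400) stood at 11.93 and 11.83 with Brg1sh_3232, 11.72 and 11.72 with Brg1sh_3364 and 11.73 and 11.79 with Brg1sh_4935, against 11.57, 11.58 and 11.41 with Rluc. For both genes every knockdown array lay above every Rluc array, the Brg1sh_3232 arrays were the highest, and Rluc replicate 3 was the lowest. Over all genes 22.8% had their 6 knockdown arrays apart from the 3 Rluc arrays on either side, 10.7% above and 12.1% below. So did 4 of the 10 genes, namely Smarca4, which is the target, Arid1a, Arid1b and Brd7. The 10 genes are brighter than most, and no such share among brighter genes is given here. In the mean of the hairpins, both genes kept their calls in all 23 alternatives computed, with limma adjusted p up to 0.0473 for Arid1a and 0.0427 for Arid1b.

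With Brg1sh_3232 Arid1a rose by 0.31 (SE 0.06, limma adjusted p = 0.00461) and Arid1b by 0.36 (SE 0.06, adjusted p = 0.00365). With Brg1sh_3364 the rises were 0.21 (SE 0.06, adjusted p = 0.023) for Arid1a and 0.20 (SE 0.06, adjusted p = 0.0424) for Arid1b. With Brg1sh_4935 they were 0.18 (SE 0.06, adjusted p = 0.049) for Arid1a and 0.24 (SE 0.06, adjusted p = 0.0227) for Arid1b. The rises with the last 2 hairpins were near the threshold. With arrays centred on their medians, adjusted p was 0.0671 for Arid1a and 0.131 for Arid1b with Brg1sh_3364, and 0.2 and 0.0991 for the same genes with Brg1sh_4935. The Arid1a call with Brg1sh_4935 was lost when any of 8 arrays was left out, all but Rluc replicate 2 (adjusted p 0.0649 to 0.254), and with Brg1sh_3364 it was lost without either of that hairpin's own arrays (0.0792 and 0.124). The Arid1b call with Brg1sh_3364 was lost without any of 5 arrays, both of Brg1sh_3364, both of Brg1sh_4935 and Rluc replicate 3 (0.0663 to 0.16), and with Brg1sh_4935 without either of its own arrays (0.0808 and 0.154). With Brg1sh_3232 both genes kept their calls in all 18 alternatives.

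No difference between the changes of the 2 ARID1 genes was detectable. Arid1b minus Arid1a within an array was -0.18 to -0.04 in knockdown arrays and -0.17 to -0.13 in Rluc arrays, a shift of 0.03 (exact permutation test over 84 arrangements of the arrays, two-sided p = 0.357, adjusted p = 0.357 over 3 pairs). When all genes were ranked by the root mean square difference from the Arid1b pattern over the 9 arrays, each gene taken relative to its own Rluc mean, Syt11 (0.04), S100a13 (0.05), Arid1a (0.05) and Stx7 (0.05) were the closest that the naming rule admits. Their log2 changes in the mean of the hairpins were 0.24 for Syt11, a synaptotagmin of vesicle membranes, and 0.24 for S100a13, a calcium-binding protein. They were 0.23 for Arid1a and 0.25 for Stx7, a syntaxin of late endosomes. The ATPase target had other neighbours: by the same measure Smarca4 was closest to Ptgir (0.09), the prostacyclin receptor, Cdr2 (0.10), Cables1 (0.11), a cofactor of cyclin-dependent kinases, and Dus4l (0.12), a tRNA-modifying enzyme, whose log2 changes were -1.01, -1.06, -1.06 and -0.95. The measure of likeness fixes the direction and size of these changes, as it does for the genes close to Arid1b, so they are a description.

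Dpf2 (probe set 10465263), the PHD finger subunit of BAF that reads acetylated histone tails, showed no change that passed the test. Its levels were 12.26 and 12.35 with Brg1sh_3232, 12.42 and 12.43 with Brg1sh_3364 and 12.40 and 12.39 with Brg1sh_4935, against 12.37, 12.47 and 12.40 with Rluc. Only the Brg1sh_3232 arrays lay below all Rluc arrays. The log2 change was -0.04 in the mean of the hairpins (95% interval -0.13 to 0.05, limma adjusted p = 0.546), and -0.11 with Brg1sh_3232 (interval -0.22 to 0.00, adjusted p = 0.18).

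Among PBAF subunits, Arid2 rose and Brd7 fell. Arid2 (probe set 10426507), the ARID subunit particular to PBAF, stood at 12.02 and 11.98 with Brg1sh_3232, 11.96 and 11.91 with Brg1sh_3364 and 11.88 and 11.82 with Brg1sh_4935, against 11.80, 11.83 and 11.69 with Rluc. In 5 of 6 knockdown arrays it lay above all Rluc arrays, and 1 Brg1sh_4935 array lay within them. It rose by 0.16 (SE 0.04, limma adjusted p = 0.0184) in the mean of the hairpins, by 0.23 (SE 0.05, adjusted p = 0.0156) with Brg1sh_3232 and by 0.17 (SE 0.05, adjusted p = 0.0482) with Brg1sh_3364. With Brg1sh_4935 the change was 0.08 (interval -0.04 to 0.20, adjusted p = 0.386). The call in the mean was lost with arrays centred on their medians (adjusted p = 0.0934), without Rluc replicate 3 (0.0713), without the hairpin Brg1sh_3232 (0.0896), with the 3 hairpin means as replicates (0.135) and with a random block for the hairpin (0.16). Leaving out either of the hairpin's own arrays ended the Brg1sh_3232 call (0.0842 and 0.0604), and leaving out any of 8 arrays, all but Rluc replicate 2, ended the Brg1sh_3364 call (0.0626 to 0.229).

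Brd7 (probe set 10580486), a bromodomain subunit that binds acetylated histones within PBAF, stood at 11.90 and 11.80 with Brg1sh_3232, 12.05 and 12.01 with Brg1sh_3364 and 11.98 and 11.97 with Brg1sh_4935, against 12.11, 12.06 and 12.17 with Rluc. All 6 knockdown arrays lay below all 3 Rluc arrays, although the gap between the nearest Brg1sh_3364 and Rluc arrays was small. Brd7 fell by 0.17 (SE 0.04, limma adjusted p = 0.0139) in the mean of the hairpins and by 0.26 (SE 0.05, adjusted p = 0.00718) with Brg1sh_3232. The change was -0.09 (SE 0.05, adjusted p = 0.275) with Brg1sh_3364 and -0.14 (SE 0.05, adjusted p = 0.0953) with Brg1sh_4935, neither of which passed the test. The call in the mean was lost without Rluc replicate 3 (0.0603), without the hairpin Brg1sh_3232 (0.0708), with hairpin means as replicates (0.124) and with a random block for the hairpin (0.164). The Brg1sh_3232 call was lost without that hairpin's replicate 2 (0.0619).

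Pbrm1, whose protein carries a row of bromodomains and defines PBAF, was read by 3 probe sets. The brightest, 10413695, gave 12.39 and 12.28 with Brg1sh_3232, 12.52 and 12.56 with Brg1sh_3364 and 12.52 and 12.41 with Brg1sh_4935, against 12.46, 12.57 and 12.53 with Rluc. Both Brg1sh_3232 arrays and 1 Brg1sh_4935 array lay below all Rluc arrays, and the others overlapped them. Its log2 change was -0.18 (SE 0.06, limma adjusted p = 0.0589) with Brg1sh_3232, and -0.07 (SE 0.04, adjusted p = 0.321) in the mean of the hairpins. Probe sets 10413670 and 10413697 gave -0.10 and -0.09 in that mean, and -0.18 and -0.17 with Brg1sh_3232. The 3 probe sets ran the same way with Brg1sh_3232, and none was called when each was tested as its own feature. The change with Brg1sh_3232 was near the threshold and was called in 5 of 18 alternatives, namely the average of the 3 probe sets (adjusted p = 0.0431), arrays centred on their medians (0.0373), genes below the median level left out (0.0332), a robust trend in eBayes (0.0332) and without Rluc replicate 1 (0.0476).

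Phf10 (probe set 10448004), a PHD finger subunit of PBAF, stood at 11.61 and 11.65 with Brg1sh_3232, 11.53 and 11.53 with Brg1sh_3364 and 11.39 and 11.40 with Brg1sh_4935, against 11.71, 11.55 and 11.46 with Rluc. The Rluc arrays spread widely for this gene, and only the Brg1sh_4935 arrays lay outside them, below. The log2 change was 0.06 (SE 0.07) with Brg1sh_3232, -0.04 (SE 0.07) with Brg1sh_3364 and -0.18 (SE 0.07) with Brg1sh_4935 (limma adjusted p = 0.644, 0.73 and 0.103). The mean of the hairpins gave -0.06 (95% interval -0.18 to 0.07, adjusted p = 0.545). The Brg1sh_4935 change was called in 3 of 18 alternatives. These were arrays centred on their medians (limma adjusted p = 0.0401), the replicate number as a block (0.0407) and Rluc replicate 3 left out (0.0299). The F test among hairpins was called without Rluc replicate 1 (0.0439).

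**Figure D2:**
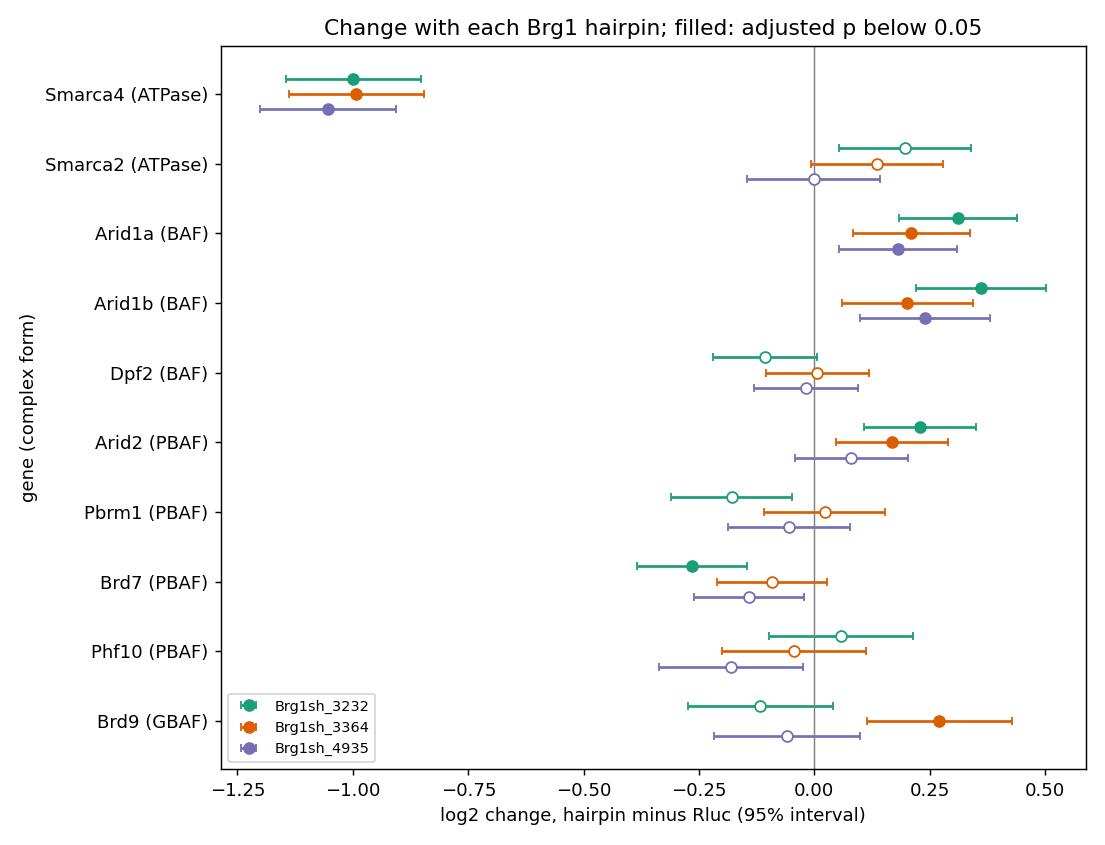
Log2 change of each of the 10 genes with Brg1sh_3232, Brg1sh_3364 and Brg1sh_4935 against Rluc; points are limma estimates, bars 95% intervals, and filled points have an adjusted p below 0.05. Smarca4 lies near -1 with every hairpin, Arid1a and Arid1b above 0 with every hairpin, and Brd9 at 0.27 with Brg1sh_3364, against -0.12 with Brg1sh_3232 and -0.06 with Brg1sh_4935.

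Brd9 (probe set 10406141), the bromodomain subunit that marks the form without ARID subunits, differed in level among the hairpins. Its levels were 10.68 and 10.86 with Brg1sh_3232, 11.14 and 11.17 with Brg1sh_3364 and 10.82 and 10.83 with Brg1sh_4935, against 10.78, 10.96 and 10.93 with Rluc. Both Brg1sh_3364 arrays lay above all other arrays, and the other knockdown arrays overlapped Rluc or, in 1 case, lay below it. Of the 10 genes Brd9 alone was called by the F test among hairpins (limma adjusted p = 0.0219), where 10.5% of all genes were called. Brg1sh_3364 exceeded Brg1sh_3232 by 0.39 (SE 0.08, adjusted p = 0.0147), and the difference Brg1sh_4935 minus Brg1sh_3364 was -0.33 (SE 0.08, adjusted p = 0.0326). Brg1sh_4935 minus Brg1sh_3232 was 0.06 (SE 0.08, adjusted p = 0.806). Over all genes 9.66% were called between Brg1sh_3364 and Brg1sh_3232, 7.61% between Brg1sh_4935 and Brg1sh_3364 and 1.02% between Brg1sh_4935 and Brg1sh_3232, and Brd9 was the only one of the 10 genes called in any of these.

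Against Rluc, Brd9 rose by 0.27 (SE 0.07, limma adjusted p = 0.019) with Brg1sh_3364, and its log2 change was -0.12 (SE 0.07, adjusted p = 0.309) with Brg1sh_3232 and -0.06 (SE 0.07, adjusted p = 0.664) with Brg1sh_4935. The mean of the hairpins was 0.03 (95% interval -0.09 to 0.15, adjusted p = 0.759), and -0.01 with arrays centred on their medians. The F test call was lost without either Brg1sh_3364 array (0.127 and 0.132), without either Brg1sh_4935 array (0.0688 and 0.0687) and with every probe set tested as its own feature (0.0764). The call with Brg1sh_3364 was lost without either of its own arrays (0.0822 and 0.108). Brd9 minus Brd7 within an array was -1.22 to -0.83 in knockdown arrays and -1.34 to -1.10 in Rluc arrays, a shift of 0.20 (exact permutation test, two-sided p = 0.131, adjusted p = 0.196).

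By hairpin, 3 of the 10 genes rose and 2 fell with Brg1sh_3232, where 20.8% of all genes were called, 9.59% higher and 11.3% lower. With Brg1sh_3364 4 rose and 1 fell, where 25.7% were called, 13.6% higher and 12.2% lower. With Brg1sh_4935 2 rose and 1 fell, where 22.1% were called, 9.79% higher and 12.3% lower. With genes below the median level left out, 44.3%, 50.2% and 45.4% of genes were called with Brg1sh_3232, Brg1sh_3364 and Brg1sh_4935. The 10 genes then gave 4 higher and 3 lower, 4 higher and 1 lower, and 2 higher and 1 lower calls. Smarca4, which is the target, Arid1a and Arid1b were called with each hairpin, and these comparisons share the Rluc arrays. The share of all genes called with each of the 3 hairpins is not given here. With arrays centred on their medians the calls were 3 higher and 3 lower with Brg1sh_3232, 1 higher and 1 lower with Brg1sh_3364, while with Brg1sh_4935 2 genes were called, Smarca4 and Phf10, both lower. In that setting 21.2%, 26.5% and 24.8% of all genes were called with Brg1sh_3232, Brg1sh_3364 and Brg1sh_4935. Rluc replicate 3 gave the lowest of the Rluc values for 5 of the 10 genes (Smarca2, Arid1a, Arid1b, Arid2 and Phf10) and the highest for 1 (Brd7), while over all genes it was the lowest in 29.8% and the highest in 33.3%.

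**Figure D3:**
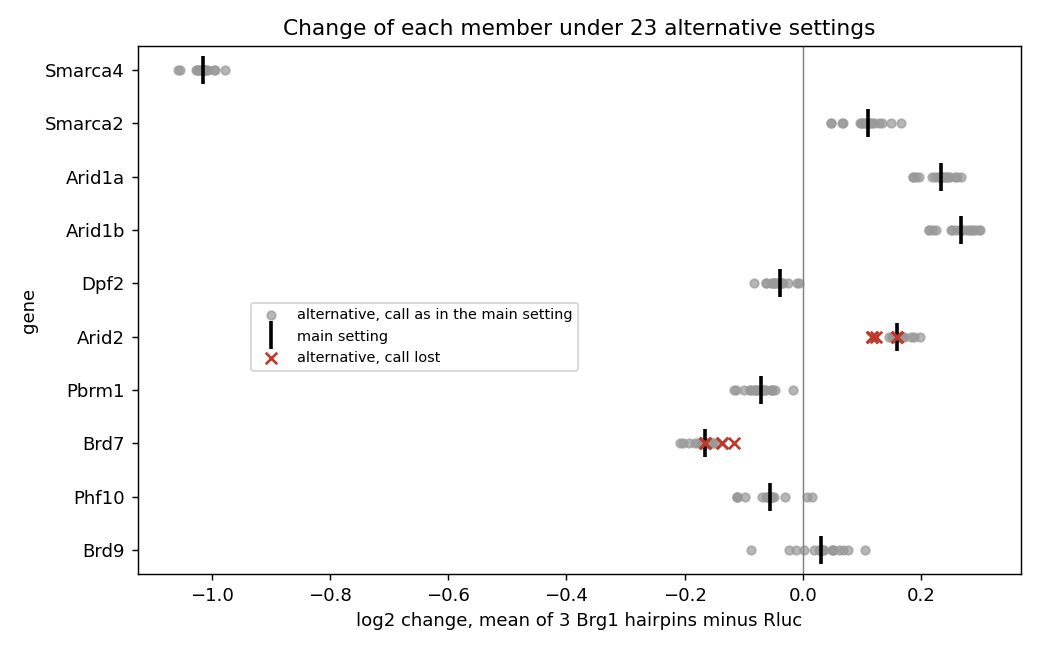
Log2 change of each of the 10 genes in the mean of the 3 hairpins against Rluc, under the main setting and every alternative computed. Upright bars mark the main setting, and crosses mark alternatives in which a call was lost. Grey points are alternatives with the call as in the main setting, whether the gene was called there or not. Smarca4, Arid1a and Arid1b keep their calls throughout, Arid2 loses its call in 7 and Brd7 in 6 of 23 alternatives, and Brd9 and Phf10 cross 0.

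Most of the remaining subunits did not pass the test. Of 19 further SWI/SNF genes, all measured, 5 rose and 1 fell in the mean of the hairpins, against the 28.3% of all genes called, with a median log2 change of 0.03. With genes below the median level left out the calls stayed at 5 and 1, where 55.6% of genes were called. Smarcd3, Actl6b, Dpf1 and Dpf3 lay below that level, so those calls are out of fewer than 19 genes. Bicral and Bicra, whose proteins join BRD9 in the form without ARID subunits, were among those that rose. Bicral stood at 10.46 and 10.43 with Brg1sh_3232, 10.39 and 10.37 with Brg1sh_3364 and 10.22 and 10.19 with Brg1sh_4935, against 10.05, 9.99 and 9.77 with Rluc. Its paralogue Bicra stood at 9.64 and 9.72 with Brg1sh_3232, 9.82 and 9.87 with Brg1sh_3364 and 9.70 and 9.64 with Brg1sh_4935, against 9.32, 9.57 and 9.26 with Rluc. Both were above all Rluc arrays in 6 of 6 knockdown arrays, as were 10.7% of all genes. Bicral rose by 0.41 (SE 0.06, limma adjusted p = 0.000816) and Bicra by 0.35 (SE 0.07, adjusted p = 0.00381). Both were called with each hairpin, for which no share of all genes is given here. Bicra missed the threshold when the 3 hairpin means served as replicates (0.057).

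The other calls fell on subunits shared between forms. Smarcc2, of the BAF170 scaffold, rose by 0.15 (SE 0.03, limma adjusted p = 0.00727) and Smarcd1, of BAF60a, by 0.16 (SE 0.04, adjusted p = 0.0142). Bcl7b, a small nucleosome-binding subunit, kept its rise in all 23 alternatives, as did Bicral. Actl6a, the actin-related subunit of dividing cells, fell by 0.18 (SE 0.04, adjusted p = 0.0124). By hairpin, Smarcc2 and Smarcd1 were called with Brg1sh_3364 alone. Adjusted p was 0.0648 and 0.0618 for these genes with Brg1sh_3232, and 0.0831 and 0.314 with Brg1sh_4935. Actl6a was called with Brg1sh_3232 and Brg1sh_3364 and not with Brg1sh_4935 (0.126). With the hairpin as a random block, adjusted p was 0.0679 for Smarcc2, 0.142 for Smarcd1 and 0.0803 for Actl6a. Without Rluc replicate 1 the call of Smarcd1 was lost (0.0563), and without Rluc replicate 3 that of Actl6a (0.0538). With arrays centred on their medians Smarcc2 (0.0519) and Smarcd1 (0.0686) were not called. The core subunits Smarcb1, at -0.07 (SE 0.04, adjusted p = 0.178), Smarcc1, at -0.01 (SE 0.04, adjusted p = 0.931), and Smarce1, at 0.03 (SE 0.04, adjusted p = 0.676), did not pass the test.

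**Figure D4:**
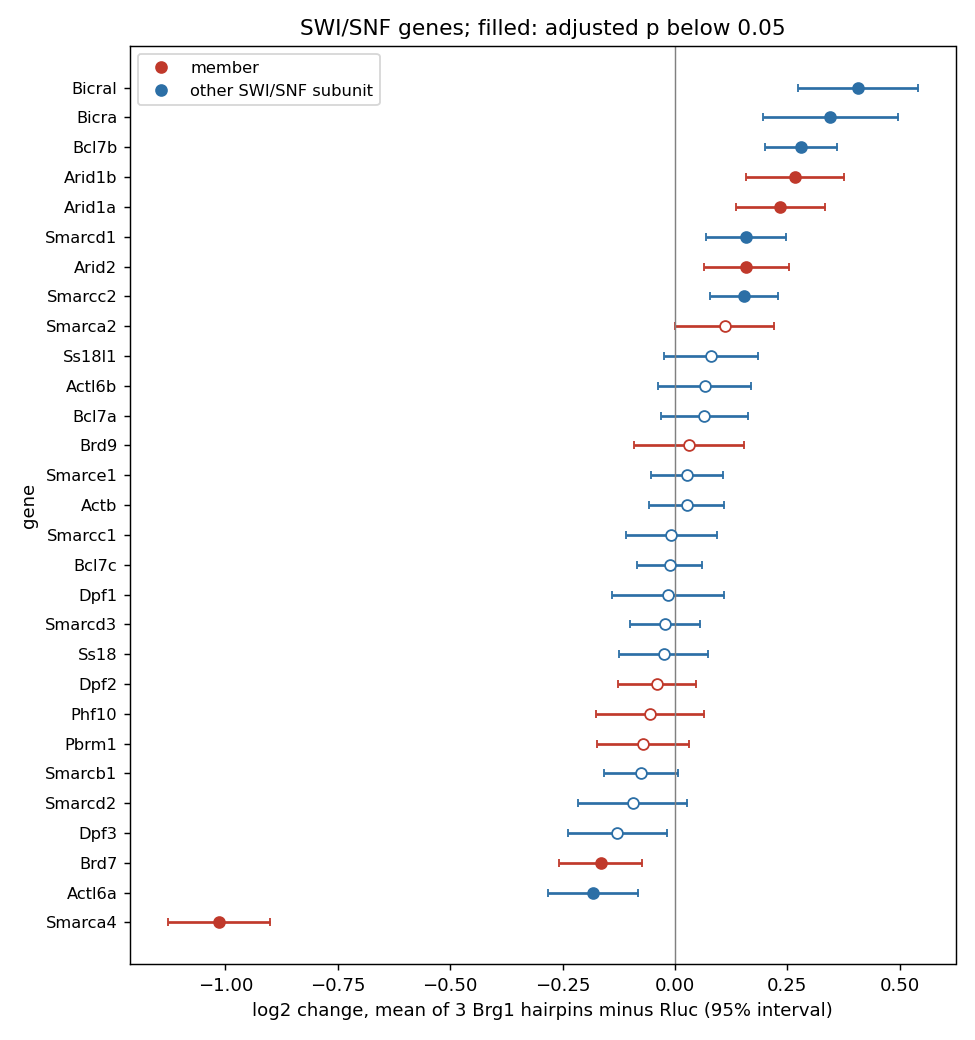
Log2 change in the mean of the 3 hairpins against Rluc for the 10 genes and 19 further SWI/SNF subunits, ordered by change; bars are 95% intervals of the limma fit and filled points have an adjusted p below 0.05. Smarca4 stands apart at -1.01, and the other 28 genes lie between -0.18 for Actl6a and 0.41 for Bicral.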

How the data were processed

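For each of 9 arrays the authors deposited 1 column of log2 levels by probe set, from RMA as the submitters' processing notes state. Its version and software and the array's build were not given in the sources used here. RMA equalises array distributions by quantiles, so a shift common to all genes would not show. Without scanner files, neither the background step nor scan date or slide was tested, and the number of arrays limits the precision.

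The platform annotation gave 1 symbol to 21640 probe sets, several to 1321, which stayed unnamed, and none to 11799. RefSeq identifiers of GRCm38.p6 matched 21553 and altered 0 symbols. Each gene was represented by its probe set with the highest mean, with no filter on dim genes. Group means of all 9 arrays were fitted with limma 3.58.1 in R 4.3.3 (lmFit and eBayes, 5 residual and 3.85 prior degrees of freedom), two-sided, with Benjamini-Hochberg adjustment over 19937 genes. The fit was tested on simulated data. Paralogue pairs were compared by exact permutation of arrays. Promoter windows were read with Python 3.11.15 and figures drawn with matplotlib 3.10.9.

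The members and lists were chosen with earlier results of these data known. The naming rule took all 10 members, up to 6 called genes with the smallest p among the further subunits, and the 4 genes most like Smarca4 and most like the called member with the next largest change, leaving out predicted and clone names. Smarcb1, Smarcc1 and Smarce1 were named outside it, after their values were seen. Alternatives were a further quantile normalization, centring on array medians, dropping genes under the median level, averaging probe sets, testing every probe set, eBayes with a robust trend, weights for arrays, a block for the replicate number, a threshold of 0.01, leaving out each array or hairpin, hairpin means as replicates and a random block for the hairpin.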

Additional observations from a re-analysis of the deposited data

Results flagged for a closer look

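The level of Brd9 differed among the 3 hairpins against the same target, by the moderated F test (limma adjusted p = 0.0219). It was 11.16 ± 0.02 with Brg1sh_3364, 10.77 ± 0.12 with Brg1sh_3232 and 10.83 ± 0.01 with Brg1sh_4935 (SD, n = 2 each), against 10.89 ± 0.10 with Rluc (SD, n = 3). Both Brg1sh_3364 arrays lay above all 7 others, while Smarca4 was at a like level with every hairpin. Over all genes 10.5% were called by this test. None of the 10 genes had a knockdown array far from the others of its 6 by Dixon's criterion. That criterion looks for a single extreme array, so it could not flag Brd9, where both Brg1sh_3364 arrays were high.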

How the results depend on the processing

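The 5 calls in the mean of the hairpins became 3 (Smarca4, Arid1a and Arid1b) with the replicate number as a block, at a threshold of 0.01, without Brg1sh_3232, with hairpin means as replicates and with a random block for the hairpin, and ranged from 3 (without Rluc replicate 3) to 5 when 1 array was left out. The share of all genes called fell too, from 28.3% in the main setting. It was 23.6% with the replicate block, 19.6% at 0.01 and 26.9% without Brg1sh_3232. With hairpin means it was 14.1%, with the random block 12.8% and without Rluc replicate 3 23.6%. No label says that same-numbered arrays form pairs. Deviations of same-numbered arrays correlated between -0.07 and 0.25. The 2 deviations of a hairpin mirror each other, so these values cannot decide whether the arrays pair. Since Rluc replicate 3 has no partner, the block leaves it without weight in the comparison. Calls with Brg1sh_3232, 5 in all, ranged from 3 (without its replicate 2) to 7 (without Rluc replicate 1) when 1 array was left out. Of all genes 12.4% and 20.7% were called at these ends, against 20.8% in the main setting. With Brg1sh_3364 the 5 became 2 with arrays centred, 2 with every probe set tested, 2 with the block and 1 at 0.01, and ranged from 1 (without either of its own arrays) to 5 when 1 array was left out, with 3 without either Brg1sh_4935 array or Rluc replicate 3. Of all genes 25.7% were called in the main setting, 26.5% with arrays centred, 22.7% with the block and 16.3% at 0.01. Of all probe sets 16.1% were called. Without its own replicate 1 or 2 the share of genes was 17.4% or 17.2%. With Brg1sh_4935 the 3 became 1 with every probe set tested and 1 at 0.01, and ranged from 1 (without either of its own arrays) to 3. Of all probe sets 12.7% were called, and of all genes 14.1% at 0.01, against 22.1% in the main setting. Without its own replicate 1 or 2 the share of genes was 13.4% or 13.6%. The 1 gene differing among hairpins by limma's F test became 0 with every probe set tested (2 at an unadjusted p under 0.05) and 0 at 0.01 (5 unadjusted), and ranged from 0 (without any 1 of the Brg1sh_3364 and Brg1sh_4935 arrays, 1 or 2 unadjusted) to 2 (without Rluc replicate 1). Shares of all genes called by the F test in these settings are not given here. The 6 called of 19 further subunits became 2 with hairpin means and 3 with the random block, where 14.1% and 12.8% of all genes were called. They numbered 5 or 6 with an array left out. The Smarca2 minus Smarca4 shift was 1.09 without Brg1sh_3232, 1.12 without Brg1sh_3364 and 1.16 without Brg1sh_4935, and 1.06 to 1.16 with 1 array left out. Brd9 turned to -0.011 with arrays centred and -0.088 without Brg1sh_3364, and ranged from -0.024 (without Rluc replicate 1) to 0.068 with 1 array left out. Phf10 turned to 0.0078 without Brg1sh_4935, and ranged from -0.11 to 0.015 (without Rluc replicate 1). In the mean of the hairpins no other of the 10 genes turned its sign; signs by hairpin were not followed across alternatives. Apart from fewer arrays or genes, the causes were not tested.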
